A study of Mus musculus with 4 samples.

Results

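The genes of the ATF4 and endoplasmic reticulum (ER) stress responses were followed in 2 clonal mouse lines that the labels call progenitors of ICC (interstitial cells of Cajal), which pace the contractions of gut muscle. The 48 genes were taken by name from 23358 gene rows of the deposited count tables, and all 48 had a row and passed the filter on low counts. They were divided by role into 26 genes of the ATF4 branch and 22 genes of the ER branch. The line 2xSCS70 was derived from the gastric tunica muscularis of H-2Kb-tsA58 mice, whose transgene encodes a heat-labile form of the SV40 large T antigen under an H-2Kb promoter that interferon switches on, and was kept at 39.5 °C with no interferon gamma. The line 2xSCS2F10 was derived from the same layers of C57BL/6J stomach and was kept at 37 °C with 5% chick embryo extract. Both grew in NeuroCult Neural Stem Cell Proliferation Medium, and each is 1 clone with 2 RNA sequencing libraries. Line, strain background, temperature and medium supplement changed together, so their parts in any difference cannot be told apart.

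Cells shut down general translation when a kinase phosphorylates the initiation factor eIF2. PERK (gene Eif2ak3) does so when unfolded protein collects in the ER, and GCN2 when amino acids run short. The mRNA of ATF4 is then translated more, and ATF4, which pairs with C/EBP proteins, switches on genes for amino acid synthesis, amino acid uptake and tRNA charging together with the stress regulators CHOP (Ddit3), TRIB3 and CHAC1. The ER branch is run by the sensors ATF6 and IRE1 (Ern1) and by XBP1, whose targets are the ER chaperones and the machinery that removes misfolded protein. The count of a gene does not tell spliced from unspliced Xbp1, nor how much ATF4 protein was made.

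Libraries held 48971264 and 44737008 counts in genes for 2xSCS70 and 40319972 and 45098902 for 2xSCS2F10, for replicates 1 and 2. Every count was even, so 1 fragment was taken as 2 counts. The tests used the counts as deposited, not divided by 2, and the effect of this on the calls was not tested. The labels do not tell whether the libraries of a line came from different cultures, so the spread behind the tests may be technical. Across gene rows, Pearson's r of log2(CPM + 1) was 0.999 between the 2xSCS70 libraries and 0.991 between the 2xSCS2F10 libraries. Among markers of mature interstitial cells of Cajal, Prkcq had no count, and Kit, Thbs4 and Hcn4 stayed at or below 0.073 CPM in all libraries. Another such marker, the chloride channel gene Ano1, had 2.29 and 2.55 CPM in 2xSCS70 and 29.8 and 18.4 CPM in 2xSCS2F10. Etv1, the only other marker of this list that was tested, went the other way (log2 1.65, 2xSCS70 minus 2xSCS2F10) and did not pass. All 6 markers summed to 2.90 and 3.45 CPM in 2xSCS70 and 29.8 and 18.8 CPM in 2xSCS2F10, so Etv1 was low in every library. Of the progenitor markers Cd34 and Cd44 were higher in 2xSCS70 (adjusted p = 0.0120 and 0.00690), Igf1r was lower and Insr did not pass. Markers of other cells also moved with the line. Of 7 smooth muscle genes 6 were lower in 2xSCS70, and their summed level was 777 to 840 CPM in 2xSCS70 and 5275 to 9351 CPM in 2xSCS2F10. All 7 mesothelial genes were lower, with sums of 95.6 to 107 CPM in 2xSCS70 and 3651 to 4088 CPM in 2xSCS2F10. Summed macrophage markers had 4.03 to 5.47 CPM in 2xSCS70 and 3.85 to 5.20 CPM in 2xSCS2F10, with Emr1 at 0 and Cd68 called higher (adjusted p = 0.0407). Summed endothelial markers had 4.11 to 4.86 CPM in 2xSCS70 and 5.86 to 9.39 CPM in 2xSCS2F10, with Cdh5 called higher, at 0.363 and 0.575 CPM in 2xSCS70 and 0 in 2xSCS2F10, and Tek called lower, at 0.145 and 0.164 CPM in 2xSCS70 and 0.873 and 1.05 CPM in 2xSCS2F10. The part of these marker differences in the results below was not tested.

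Short stretches of promoter are shown because most of the ATF4 branch was lower in 2xSCS70 and some of its genes hold a known element. The C/EBP-ATF response element, at which ATF4 binds with its partners, was searched as TGATGNAA on both strands, in RefSeq windows of 300 bases (build GRCm38.p6, the assembly mm10 stands for) from 250 bases before to 50 bases after each annotated start. Windows were used for 40 of the 48 genes. In the ATF4 branch, 7 of 21 genes with a window held the element (33.3%), against 4.51% of all 27025 genes with a window. In the ER branch 1 of 19 did, namely Herpud1. Matches are printed 5′ to 3′ along the strand on which the element reads forward, with the element in capitals.
Chac1, chr2:119351039-119351066, minus strand: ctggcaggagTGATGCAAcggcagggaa
Trib3, chr2:152344029-152344056, plus strand: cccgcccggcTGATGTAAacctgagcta
Nupr1, chr7:126625563-126625590, plus strand: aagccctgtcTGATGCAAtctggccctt
Atf3, chr1:191183426-191183453, plus strand: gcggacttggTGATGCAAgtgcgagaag
Asns, chr6:7693215-7693242, minus strand: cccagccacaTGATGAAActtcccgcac
Gars, chr6:55037961-55037988, minus strand: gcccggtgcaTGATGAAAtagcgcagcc
Slc7a11, chr3:50443643-50443689, minus strand: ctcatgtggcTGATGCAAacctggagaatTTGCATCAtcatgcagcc
Herpud1, chr8:94386307-94386334, minus strand: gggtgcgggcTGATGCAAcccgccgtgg

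The form TGATGCAA made up 6 of the 9 matches, in 5 genes. Slc7a11 held a pair of them facing each other with 11 bases between. The match of Trib3 began 14 bases after the annotated start, inside the transcript. The other matches lay 23 to 193 bases before the start.

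The ER stress element, at which ATF6 and XBP1 act, was searched as CCAAT and CCACG with 9 bases between. It was found in 7 of 19 ER branch genes with a window (36.8%) and in 0 of 21 ATF4 branch genes, against 0.137% of all genes with a window. All 7 were chaperones or folding enzymes, namely Hspa5, Hsp90b1, Calr, Canx, Pdia6, Dnajc3 and Creld2. Hsp90b1 held a pair. The windows of 2 that were lower in 2xSCS70 and of 2 that did not pass the test are shown, with the element in capitals.
Hspa5, chr2:34772015-34772053, plus strand: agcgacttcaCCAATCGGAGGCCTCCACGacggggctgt
Dnajc3, chr14:118937817-118937855, plus strand: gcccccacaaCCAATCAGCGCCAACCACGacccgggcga
Canx, chr11:50325790-50325828, minus strand: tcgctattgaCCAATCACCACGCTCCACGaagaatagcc
Creld2, chr15:88819510-88819548, minus strand: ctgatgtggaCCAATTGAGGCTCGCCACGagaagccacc

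The XBP1 element TGACGTGG was in no window of a member and in 0.714% of all genes with a window. A match is a run of letters and not a measured binding site. The genes were listed for their known part in these responses, so shares above that of all genes may follow from the listing itself. Those shares are no result of the measured counts.

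Most of the ATF4 branch was lower in 2xSCS70, and the ER branch in part. In the ATF4 branch 20 of 26 genes were lower, 1 was higher and 5 did not pass the test (edgeR quasi-likelihood test, adjusted p under 0.05 over all tested genes). In the ER branch 11 of 22 genes were lower, 0 were higher and 11 did not pass. Of all 14496 tested genes 40.6% were called, 18.8% higher and 21.8% lower in 2xSCS70, while 80.8% of the ATF4 branch and 50% of the ER branch were called. A change of at least 2-fold was reached by 15 of the lower ATF4 branch genes and 4 of the lower ER branch genes. The median log2 fold change, 2xSCS70 minus 2xSCS2F10, was -1.04 in the ATF4 branch, -0.50 in the ER branch and 0.02 over all tested genes. All values below are CPM, counts relative to the library total scaled with TMM (trimmed mean of M-values) factors, unless another scale is named, and are given for replicate 1 and then replicate 2. Each SE is on the log2 scale, and each adjusted p is from edgeR with Benjamini-Hochberg adjustment unless DESeq2 is named. In bulk RNA a smaller share of cells with a transcript and less of it per cell cannot be told apart. Where lines or groups are said not to overlap, the share of all tested genes that did so is not given. Separation alone therefore sets no gene apart.

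These counts rest on the close agreement of the 2xSCS70 pair. Without 2xSCS70 replicate 1, 3 of the 32 called genes were still called (Chac1, Trib3 and Herpud1), and without its replicate 2, 2 were (Chac1 and Trib3), while the calls over all genes dropped to 850 and 889. By branch, 2 ATF4 branch genes and 1 ER branch gene were then lower without replicate 1, and 2 and 0 without replicate 2. Leaving out a library of 2xSCS2F10 left the spread to the 2xSCS70 pair and raised the calls over all genes as well as among the members. A pass in those fits was therefore common and sets no member apart. The median log2 fold change of the ATF4 branch minus that of the ER branch was -0.40 without 2xSCS2F10 replicate 1 and -0.73 without 2xSCS2F10 replicate 2. No called gene changed its direction in any of the 10 alternative settings. Scaling to plain library totals moved the median of all genes up by 0.29 on the log2 scale, so that 65.9% of called genes were higher, against 46.3% with TMM factors. Under plain totals the ER branch had 7 genes lower and 1 higher, and the ATF4 branch 20 lower and 2 higher. Relative to the median of all genes, the ATF4 branch stood at -1.07 with either scaling and the ER branch at -0.51 with totals and -0.52 with TMM factors.

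**Figure D1:**
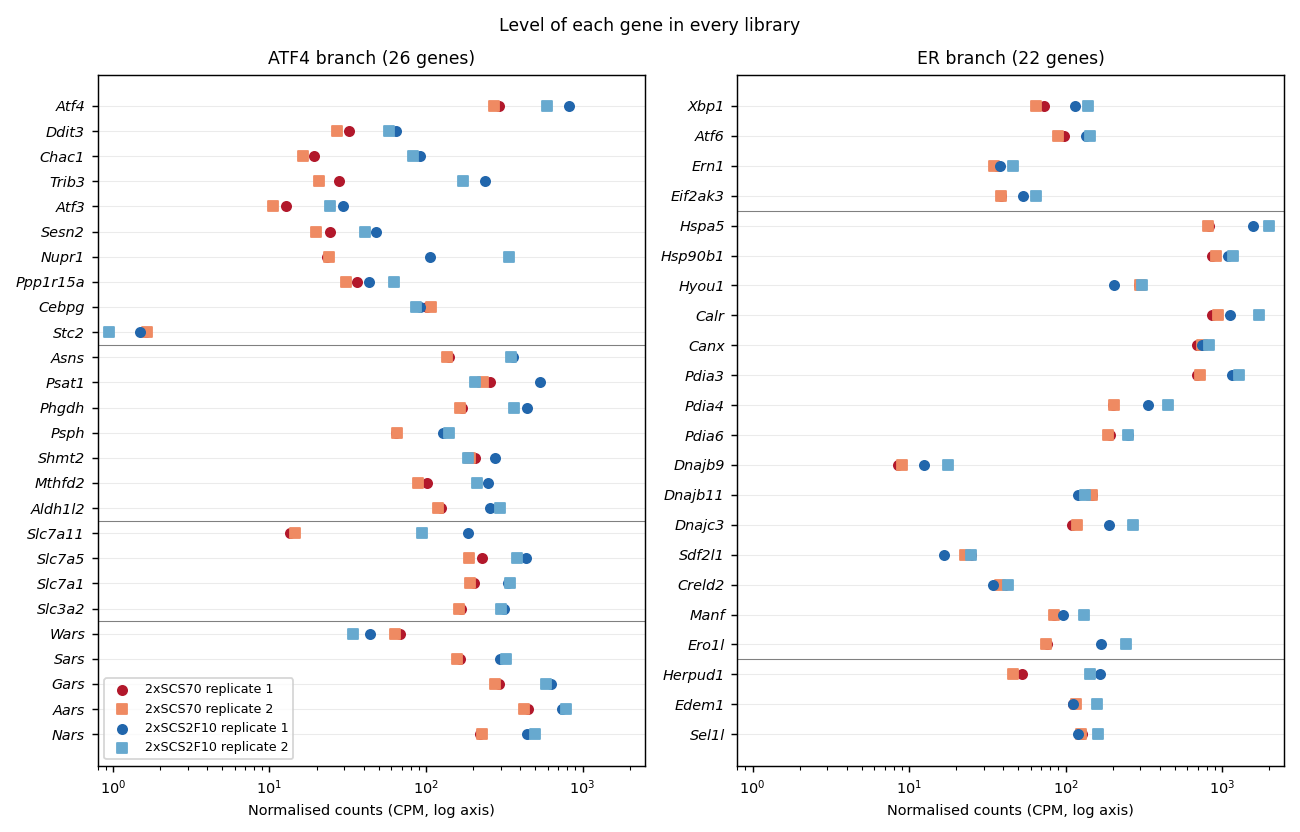
Level of each of the 48 genes in every library (CPM on a log axis), with the ATF4 branch on the left and the ER branch on the right. Red circles and orange squares are the 2 libraries of 2xSCS70 and blue circles and squares those of 2xSCS2F10, and grey lines divide the roles. For most ATF4 branch genes both 2xSCS70 points lie left of both 2xSCS2F10 points, with Trib3, Nupr1 and Slc7a11 the widest apart. The share of all tested genes separated in this way is not given here, so separation alone sets no gene apart.

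Atf4 itself was lower in 2xSCS70, with most of the regulators it controls. Atf4 (chromosome 15, 80255184 to 80257541, mm10) had 293 and 271 CPM in 2xSCS70, against 815 and 592 CPM in 2xSCS2F10. The groups did not overlap, and the 2xSCS2F10 libraries stood 0.46 apart on the log2 scale. Its level was 2.50-fold lower in 2xSCS70 (log2 -1.32, SE 0.19, adjusted p = 0.00742).

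Trib3, a pseudokinase that restrains ATF4 signalling (chromosome 2, 152337425 to 152344060), had 27.7 and 20.8 CPM in 2xSCS70 and 238 and 173 CPM in 2xSCS2F10. Both 2xSCS70 libraries were far below both others, 8.47-fold on average (log2 -3.08, SE 0.24, adjusted p = 0.00155). Chac1, an enzyme that breaks down glutathione (chromosome 2, 119351242 to 119354327), had 19.2 and 16.5 CPM in 2xSCS70 and 91.1 and 82.7 CPM in 2xSCS2F10. It was 4.87-fold lower (log2 -2.28, SE 0.15, adjusted p = 0.000976). Trib3 and Chac1 were the members that passed the test in all 10 alternatives.

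Nupr1, a small chromatin protein induced by stress, had 23.4 and 24.1 CPM in 2xSCS70 and 106 and 341 CPM in 2xSCS2F10. The 2xSCS70 pair agreed closely, whereas the 2xSCS2F10 libraries stood 1.68 apart on the log2 scale. The lines did not overlap and differed 9.42-fold (log2 -3.24, SE 0.58, adjusted p = 0.0125). It was 14.5-fold without 2xSCS2F10 replicate 1 and 4.48-fold without its replicate 2.

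Ddit3, which encodes CHOP, had 32.4 and 27.2 CPM in 2xSCS70 and 64.2 and 57.8 CPM in 2xSCS2F10 (2.05-fold lower, SE 0.15, adjusted p = 0.00728). Its row shares 68 bases with Mars, which did not pass the test (adjusted p = 0.287). Atf3, a factor of the same family as ATF4, had 12.8 and 10.6 CPM in 2xSCS70 and 29.4 and 24.3 CPM in 2xSCS2F10 (2.30-fold lower, SE 0.18, adjusted p = 0.00807). Sesn2, a sestrin that restrains mTORC1, had 24.3 and 19.9 CPM in 2xSCS70 and 47.8 and 40.7 CPM in 2xSCS2F10 (2.00-fold lower, SE 0.17, adjusted p = 0.0106). None of these 3 overlapped between the lines, which alone sets none of them apart.

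Of the 10 stress regulators 7 were lower and 3 did not pass. Ppp1r15a, the phosphatase subunit GADD34 that restores eIF2, had 36.1 and 30.8 CPM in 2xSCS70 and 43.3 and 62.7 CPM in 2xSCS2F10 (log2 -0.66, SE 0.22, adjusted p = 0.0643). It passed as lower with DESeq2 (adjusted p = 0.0300). Its log2 fold change was -0.92 without 2xSCS2F10 replicate 1 and -0.37 without 2xSCS2F10 replicate 2. Cebpg, a partner of ATF4 on the element printed above, had 101 and 108 CPM in 2xSCS70 and 91.5 and 86.3 CPM in 2xSCS2F10 (adjusted p = 0.164). It passed as higher under plain totals (adjusted p = 0.0445). Stc2, a secreted glycoprotein, was the least abundant member, with 1.63 and 1.64 CPM in 2xSCS70 and 1.49 and 0.945 CPM in 2xSCS2F10 (adjusted p = 0.368). Without a 2xSCS70 library the adjusted p of the 7 called regulators ran from 0.0292 to 0.128, with Chac1 and Trib3 the ones past the threshold in both cases.

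The serine pathway was lower in 2xSCS70 at its first and last steps, while the middle step did not pass. Phgdh, the first enzyme of serine synthesis, had 169.5 and 165 CPM in 2xSCS70 and 439.5 and 362 CPM in 2xSCS2F10 (2.40-fold lower, SE 0.14, adjusted p = 0.00388). GENCODE names a pseudogene of Phgdh. Psph, the last, had 64.5 and 64.9 CPM in 2xSCS70 and 128 and 141 CPM in 2xSCS2F10 (2.08-fold lower, SE 0.12, adjusted p = 0.00367). Psat1, between them, was spread widely in 2xSCS2F10. It had 258 and 233 CPM in 2xSCS70 and 534 and 206 CPM in 2xSCS2F10, so that the lines overlapped (log2 -0.59, SE 0.45, adjusted p = 0.328). The library left out decided its sign. With 2xSCS2F10 replicate 2 alone its log2 fold change was 0.24, and with 2xSCS2F10 replicate 1 alone it was -1.12.

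Asparagine synthetase Asns, the textbook ATF4 target, differed with little spread in either line. It had 141 and 137 CPM in 2xSCS70 and 358 and 348 CPM in 2xSCS2F10 (2.54-fold lower, SE 0.11, adjusted p = 0.00177). In the mitochondrial folate pathway, Mthfd2 had 102 and 88.4 CPM in 2xSCS70 and 249 and 210.4 CPM in 2xSCS2F10 (2.42-fold lower, SE 0.15, adjusted p = 0.00405). Aldh1l2, which makes NADPH there, had 124 and 120.0 CPM in 2xSCS70 and 257 and 298 CPM in 2xSCS2F10 (2.27-fold lower, SE 0.13, adjusted p = 0.00347). Shmt2, which feeds serine into that pathway, overlapped between the lines, at 206 and 191 CPM in 2xSCS70 and 276 and 185 CPM in 2xSCS2F10 (adjusted p = 0.460). Its log2 fold change was -0.48 without 2xSCS2F10 replicate 2, and its sign turned under plain totals (log2 0.06) and without 2xSCS2F10 replicate 1 (log2 0.09). In all, 5 of the 7 enzymes were lower. Their adjusted p without a 2xSCS70 library lay between 0.0599 and 0.0813, past the threshold in no case.

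All 4 amino acid transporters were lower in 2xSCS70. Slc7a11, the cystine importer xCT (chromosome 3, 50364936 to 50443613), had 13.5 and 14.6 CPM in 2xSCS70 and 184 and 94.9 CPM in 2xSCS2F10. On all 4 libraries this was the widest difference of any member, 9.94-fold (log2 -3.31, SE 0.35, adjusted p = 0.0033), although the 2xSCS2F10 libraries stood 0.96 apart on the log2 scale. Slc3a2, the heavy chain that carries Slc7a11 and Slc7a5 to the membrane, had 168 and 164 CPM in 2xSCS70 and 314 and 303 CPM in 2xSCS2F10 (log2 -0.90, SE 0.11, adjusted p = 0.00478). The leucine transporter Slc7a5 (log2 -0.98, SE 0.15) and the arginine and lysine transporter Slc7a1 (log2 -0.77, SE 0.11) were lower too (adjusted p = 0.00879 and 0.00746). The heavy chain thus changed less than Slc7a11 did, and no test of that difference was made. The 4 calls ended without either 2xSCS70 library, with adjusted p from 0.0562 to 0.136.

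Among the 5 tRNA synthetases, enzymes that charge tRNAs with amino acids, 4 were lower and 1 was higher. Gars had 295 and 275 CPM in 2xSCS70 and 626 and 588 CPM in 2xSCS2F10 (2.13-fold lower, SE 0.12, adjusted p = 0.00387). Nars had 221 and 226 CPM in 2xSCS70 and 445 and 496 CPM in 2xSCS2F10 (2.10-fold lower, SE 0.12, adjusted p = 0.00403). Sars and Aars were lower by 0.95 and 0.81 on the log2 scale (adjusted p = 0.00473 and 0.00878), and the row of Aars shares 532 bases with Exosc6. Wars, the tryptophan enzyme, went the other way, with 68.4 and 63.0 CPM in 2xSCS70 and 44.2 and 34.2 CPM in 2xSCS2F10 (1.68-fold higher, SE 0.17, adjusted p = 0.0233). It was the only member called higher in 2xSCS70 in the test on all 4 libraries. Without a 2xSCS70 library none of the 5 was called (adjusted p from 0.0848 to 0.190).

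**Figure D2:**
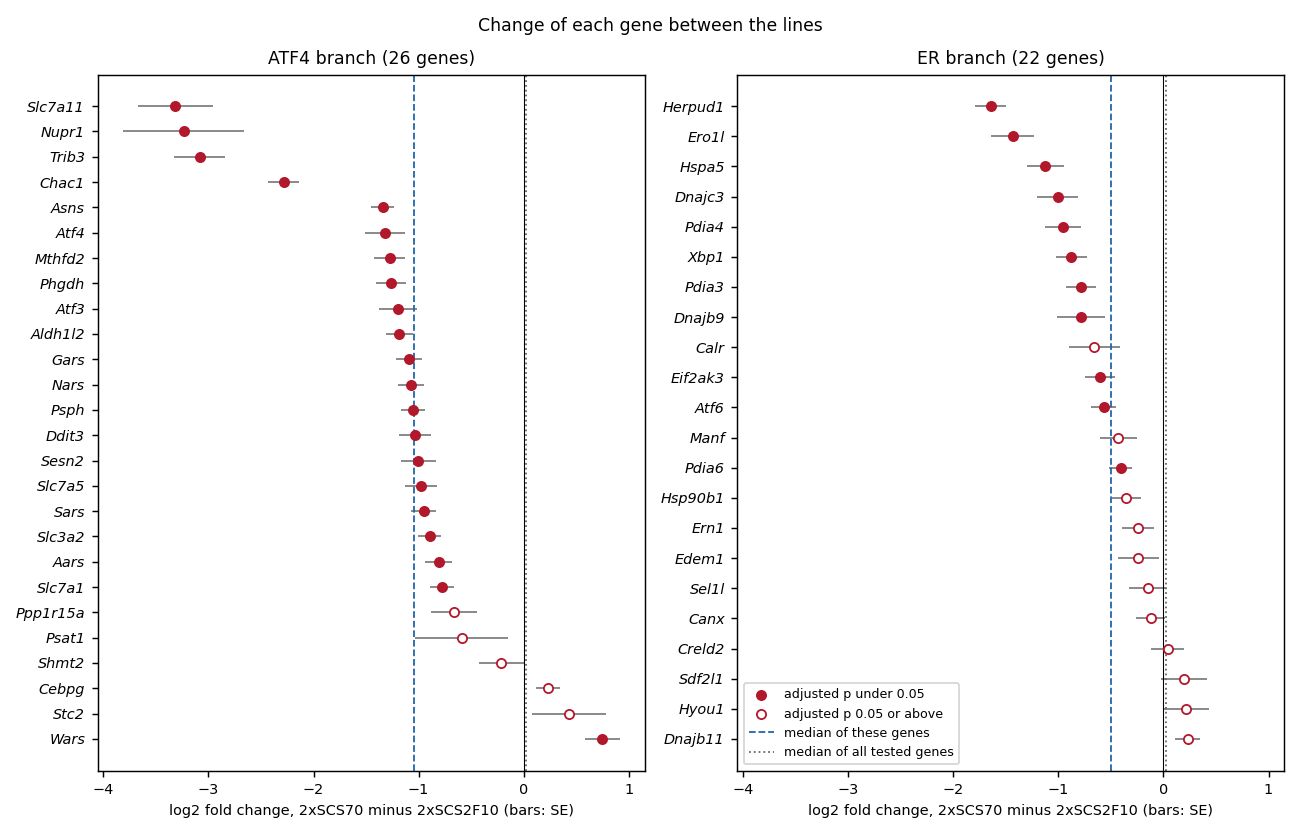
Log2 fold change of each gene, 2xSCS70 minus 2xSCS2F10, with its SE, sorted within each branch. Filled points passed the edgeR test and open points did not, the dashed line is the median of the branch (-1.04 and -0.50) and the dotted line that of all tested genes (0.02). Slc7a11, Nupr1, Trib3 and Chac1 lie apart on the left of the ATF4 branch, and Wars alone is filled on the right.

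In the ER branch, 3 of the 4 sensors and factors were lower in 2xSCS70, by less than 2-fold. Xbp1 had 72.8 and 64.9 CPM in 2xSCS70 and 114 and 138 CPM in 2xSCS2F10 (log2 -0.87, SE 0.15, adjusted p = 0.0109). Eif2ak3, the kinase PERK, had 38.7 and 38.8 CPM in 2xSCS70 and 53.6 and 64.5 CPM in 2xSCS2F10 (log2 -0.61, SE 0.14, adjusted p = 0.0264). Atf6 was lower by 0.57 on the log2 scale (SE 0.12, adjusted p = 0.0188). Ern1, the kinase and RNase IRE1 that splices Xbp1, had 36.5 and 34.9 CPM in 2xSCS70 and 37.9 and 46.3 CPM in 2xSCS2F10 (log2 -0.24, SE 0.15, adjusted p = 0.25). Its log2 fold change was -0.39 without 2xSCS2F10 replicate 1, and its sign turned under plain totals (log2 0.06). Under plain totals Eif2ak3 and Atf6 did not pass (adjusted p = 0.136 and 0.166). Without a 2xSCS70 library none of the 3 was called (adjusted p from 0.103 to 0.211).

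The chaperones did not move as a block. Hspa5, the master chaperone BiP (chromosome 2, 34772090 to 34776529), had 821 and 811 CPM in 2xSCS70 and 1573 and 1984 CPM in 2xSCS2F10. The lines were well apart, 2.18-fold (log2 -1.12, SE 0.18, adjusted p = 0.00886). Hsp90b1 (GRP94), a partner of BiP with a pair of ER stress elements, had 859 and 914 CPM in 2xSCS70 and 1093 and 1170.5 CPM in 2xSCS2F10. Its groups did not overlap, yet the difference was small and missed the threshold (log2 -0.35, SE 0.14, adjusted p = 0.0989). Within each library the ratio of Hsp90b1 to Hspa5 counts, which no scaling factor touches, was 1.05 and 1.13 in 2xSCS70 and 0.695 and 0.590 in 2xSCS2F10.

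The thiol oxidase Ero1l, which recharges disulfide-forming enzymes and is known as a CHOP target, was the folding enzyme with the widest difference. It had 76.5 and 75 CPM in 2xSCS70 and 167 and 242 CPM in 2xSCS2F10 (2.70-fold lower, SE 0.20, adjusted p = 0.00686). Dnajc3, a co-chaperone of BiP, had 111 and 119 CPM in 2xSCS70 and 190.1 and 269 CPM in 2xSCS2F10 (2.01-fold lower, SE 0.20, adjusted p = 0.0158). The disulfide isomerases Pdia4 (log2 -0.95), Pdia3 (log2 -0.79) and Pdia6 (log2 -0.41) were lower as well (adjusted p = 0.0129, 0.0130 and 0.0376). Dnajb9, another co-chaperone of BiP, was lower by 0.78 on the log2 scale (adjusted p = 0.0464). Pdia6 was not called in 6 of the 10 alternatives, among them the replicate block (adjusted p = 0.0837), and Dnajb9 not under upper quartile scaling, plain totals or no filter (adjusted p = 0.0615, 0.125 and 0.0501).

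The lectin chaperones Calr and Canx, which hold glycoproteins in the ER, did not pass. Calr had 862 and 936 CPM in 2xSCS70 and 1119 and 1718 CPM in 2xSCS2F10 (log2 -0.66, SE 0.24, adjusted p = 0.0844), and GENCODE names a pseudogene of it. Canx had 693 and 745 CPM in 2xSCS70 and 739 and 825 CPM in 2xSCS2F10 (adjusted p = 0.515). Canx overlapped between the lines. Calr passed as lower with DESeq2 (adjusted p = 0.0298), as did Hsp90b1 (adjusted p = 0.0488 with DESeq2).

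Of the remaining chaperones, Dnajb11, Hyou1, Sdf2l1 and Creld2 had changes above 0 (log2 0.23, 0.21, 0.20 and 0.04, adjusted p = 0.168 to 0.852), and Manf had log2 -0.43 (adjusted p = 0.108). In 2xSCS70 Hyou1, an exchange factor of BiP, had 294 and 298 CPM and Sdf2l1 25 and 22.7 CPM. In 2xSCS2F10 Hyou1 had 203 and 308 CPM and Sdf2l1 16.8 and 24.9 CPM, so both overlapped. Dnajb11 passed as higher under plain totals (adjusted p = 0.0250). Without 2xSCS2F10 replicate 2, Hyou1, Dnajb11 and Sdf2l1 had log2 fold changes of 0.54, 0.30 and 0.50. Without 2xSCS2F10 replicate 1, Manf had a value of -0.64 and Hyou1 and Sdf2l1 had values of -0.07 each. Of the 15 chaperones and folding enzymes 7 were lower and 8 did not pass, and without a 2xSCS70 library none of the 7 was called (adjusted p from 0.0884 to 0.316).

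Herpud1, an ER membrane protein of the degradation machinery, was the ER branch gene with the widest difference and the one whose window held the C/EBP-ATF response element. It (chromosome 8, 94386500 to 94395358) had 52.8 and 46.3 CPM in 2xSCS70 and 166 and 143 CPM in 2xSCS2F10. The lines were 3.13-fold apart (log2 -1.64, SE 0.14, adjusted p = 0.00199), and the call ended in 1 alternative, without 2xSCS70 replicate 2 (adjusted p = 0.0504). The other 2 degradation genes, the mannosidase-like Edem1 (log2 -0.24, adjusted p = 0.367) and the adaptor Sel1l (log2 -0.15, adjusted p = 0.518), overlapped between the lines. Without 2xSCS2F10 replicate 1 they had log2 fold changes of -0.49 and -0.37. Both signs turned without 2xSCS2F10 replicate 2 (log2 0.04 and 0.08) and under plain totals (log2 0.07 and 0.15).

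Set side by side, the ATF4 branch was lower relative to the ER branch in 2xSCS70 than in 2xSCS2F10. Within each library the median log2 CPM of the ATF4 branch minus that of the ER branch was 0.02 and -0.05 in 2xSCS70 and 0.76 and 0.38 in 2xSCS2F10. The summed counts of the ATF4 branch were 0.609 and 0.555 of those of the ER branch in 2xSCS70, and 0.917 and 0.676 in 2xSCS2F10. Neither measure depends on scaling between libraries, and neither overlapped between the lines. The difference of the median log2 fold changes was -0.55, and it ran from -0.73 to -0.40 over the alternatives. Such a difference over chosen genes carries no p-value. Single genes were also set against Hspa5, whose own log2 fold change of -1.12 was below the ATF4 branch median of -1.04. Other called genes of the branch, among them Aars, Slc7a1, Slc3a2 and Sars, changed less than Hspa5. The genes shown here therefore do not stand for the branch. Trib3 counts were 0.0337 and 0.0256 of Hspa5 counts in 2xSCS70 and 0.152 and 0.0869 in 2xSCS2F10, and Chac1 counts were 0.0234 and 0.0203 in 2xSCS70 and 0.0579 and 0.0417 in 2xSCS2F10. Asns counts were 0.172 and 0.169 of Hspa5 counts in 2xSCS70 and 0.227 and 0.175 in 2xSCS2F10. These 3 ratios were lower in both 2xSCS70 libraries, that of Asns only narrowly (0.172 against 0.175 in the closest libraries). The ratio of Atf4 overlapped, at 0.356 and 0.334 in 2xSCS70 and 0.518 and 0.298 in 2xSCS2F10.

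Set against Atf4 itself, its targets did not change alike. Trib3 counts were 0.0946 and 0.0768 of Atf4 counts in 2xSCS70 and 0.292 and 0.291 in 2xSCS2F10. Chac1 counts were 0.0657 and 0.0608 of Atf4 counts in 2xSCS70 and 0.112 and 0.140 in 2xSCS2F10. Both ratios were lower in both 2xSCS70 libraries. Ddit3 counts were 0.111 and 0.100 of Atf4 counts in 2xSCS70 and 0.0788 and 0.0976 in 2xSCS2F10. This ratio was higher in both 2xSCS70 libraries only narrowly (0.100 against 0.0976 in the closest libraries), so it shows no clear direction. The ratio of Asns to Atf4 overlapped, at 0.482 and 0.506 in 2xSCS70 and 0.439 and 0.588 in 2xSCS2F10.

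**Figure D3:**
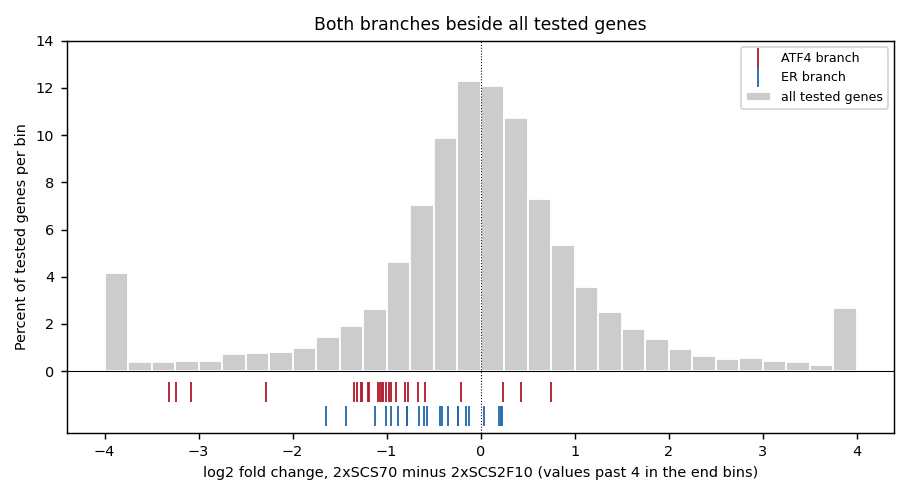
Percent of the 14496 tested genes in bins of log2 fold change, 2xSCS70 minus 2xSCS2F10 (grey bars, with values past 4 on either side in the end bins). Below the bars, red ticks are the 26 ATF4 branch genes and blue ticks the 22 ER branch genes. All but 6 red ticks lie at -0.77 or below, while blue ticks run from -1.64 to 0.23.

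Among the members the C/EBP-ATF response element went with larger changes, and the ER stress element did not. The 7 ATF4 branch genes with a C/EBP-ATF response element in a window used here were all lower, with a median log2 fold change of -2.28 and a range from -3.31 to -1.09. Of the 14 without it 9 were lower, with a median of -0.92. The 7 ER branch genes with an ER stress element had a median of -0.41, with 3 of them lower, and the 12 without it a median of -0.69, with 7 lower. Outside the members, 283 tested genes with the C/EBP-ATF response element had a median of -0.03, with 25.4% lower and 16.6% higher. Among 10085 tested genes with a window that are not members, 21.2% were lower and 19.4% higher. These are descriptions of letters and of measured changes, and neither the members nor the windows were drawn at random.

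**Figure D4:**
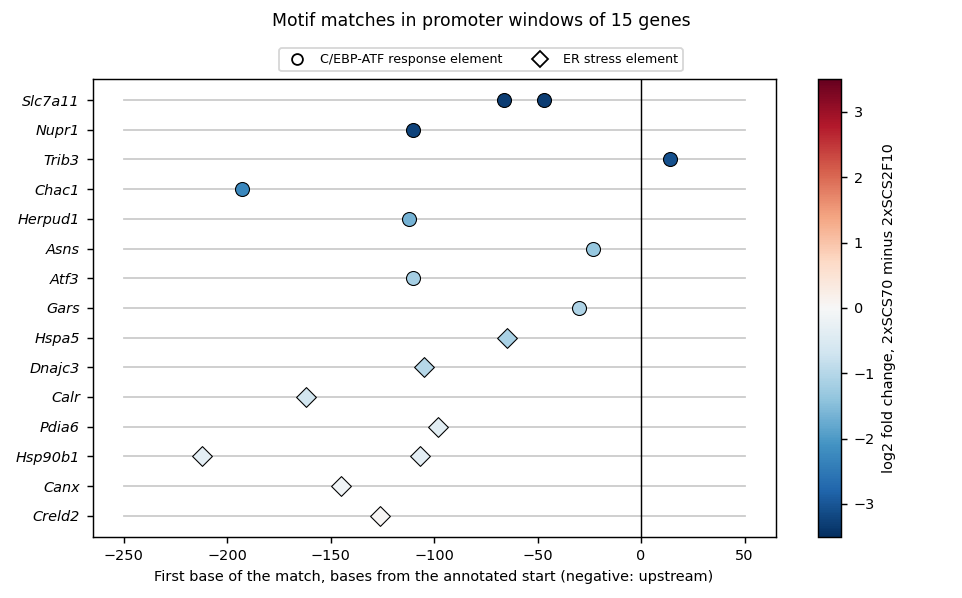
Position of each motif match in the promoter windows of 15 members, in bases from the annotated start, with circles for the C/EBP-ATF response element and diamonds for the ER stress element. Colour gives the log2 fold change, 2xSCS70 minus 2xSCS2F10. Genes with circles run from -3.31 in Slc7a11 to -1.09 in Gars, and genes with diamonds from -1.12 in Hspa5 to 0.04 in Creld2.

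Per length, Calr, Hspa5, Pdia3 and Hsp90b1 were among the 5 most abundant members in both lines. On the authors' RPKM scale (reads relative to coding length and library size, without TMM factors), Calr came first with 385 ± 5.58 RPKM in 2xSCS70 and 507 ± 89.4 RPKM in 2xSCS2F10 (SD, n = 2). In 2xSCS2F10 it overlapped Hspa5, which was above it in replicate 1 (464 RPKM for Hspa5 and 444 RPKM for Calr). In 2xSCS70 it was followed by Hsp90b1 (267 ± 7.71 RPKM), Hspa5 (260.0 ± 21.1 RPKM), Pdia3 (223 ± 9.91 RPKM) and Canx (139 ± 3.04 RPKM). Hsp90b1 and Hspa5 did not differ there beyond their spread. In 2xSCS2F10 the next were Hspa5 (477 ± 18.2 RPKM), Pdia3 (326 ± 15.1 RPKM), Atf4 (293 ± 101 RPKM) and Hsp90b1 (290 ± 22.4 RPKM), where Atf4 overlapped both neighbours. Atf4 ranked 6th of the 48 in 2xSCS70 and 4th in 2xSCS2F10. Trib3 ranked 40th in 2xSCS70 (9.92 ± 2.69 RPKM) and 20th in 2xSCS2F10 (72.0 ± 25 RPKM), and Nupr1 25th and 6th.

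The 2xSCS2F10 libraries differed from each other in the ER branch. Of the 22 ER branch genes 20 were higher in replicate 2, with a median log2 difference, replicate 1 minus replicate 2, of -0.32, whereas 18 of the 26 ATF4 branch genes were higher in replicate 1, with a median of 0.15. The widest gaps were those of Nupr1 (-1.68) and Psat1 (1.37), the only members more than 2-fold apart between replicates. The lean of the ATF4 branch was also seen in 2xSCS70, where 20 of 26 genes were higher in replicate 1 (median 0.09). For the ER branch 12 of 22 were, with a median of 0.01, and no member was more than 2-fold apart. Over all tested genes the median was 0.00 in both lines.

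Other genes of the same pathways were taken from lists drawn up by role. Of 28 further genes linked to ATF4, 50% were called, against 40.6% over all genes. In this list 13 were lower, 1 higher and 14 did not pass, and the 13 all differed by 2-fold or more (median of the list -0.48). Those with the smallest adjusted p were Vegfa, a growth factor of vessels that also answers to hypoxia (9.14-fold lower, 48.1 and 39.3 CPM in 2xSCS70 and 364 and 435 CPM in 2xSCS2F10, adjusted p = 0.0007), Pck2, a mitochondrial enzyme that makes phosphoenolpyruvate (3.40-fold lower, adjusted p = 0.000967), and the lipoprotein receptor Vldlr (3.54-fold lower, adjusted p = 0.00137). The gene called higher was Ddit4, an inhibitor of mTORC1 (log2 0.56, adjusted p = 0.0374). Of 15 further cytosolic tRNA synthetases 8 were lower and 2 higher (66.7% called), led by Iars (2.16-fold lower, adjusted p = 0.00327), with Qars and Farsa the higher ones. Of the 16 mitochondrial synthetases 1 was lower and 1 higher, below the 40.6% called over all genes.

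The genes that set eIF2 activity showed no common direction. Of 13 genes of eIF2 kinases, eIF2 and eIF2B, 4 were higher and 2 lower, each by less than 2-fold. The share called, 46.2%, was near the 40.6% over all genes. The kinase Eif2ak1, which senses haem and mitochondrial stress, was higher (log2 0.57, adjusted p = 0.0195), and the eIF2 subunit gene Eif2s2 was lower (log2 -0.85, adjusted p = 0.0103). Of 12 tested enzymes of serine, glycine and folate metabolism 3 were higher and 3 lower (50% called). The cytosolic counterparts of the mitochondrial members did not share one direction, since Shmt1 was 3.79-fold higher (adjusted p = 0.0071) and Aldh1l1 74.1-fold lower (0.580 and 0.575 CPM in 2xSCS70, 42.9 and 43.1 CPM in 2xSCS2F10, adjusted p = 0.000347).

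Wider ER lists had 38.1% to 55.6% of their genes called, against 40.6% over all genes. Of 30 further chaperones and folding enzymes 11 were lower and 3 higher, among them Fkbp14, a collagen prolyl isomerase (3.09-fold lower, adjusted p = 0.00685), and Ero1lb, the paralogue of Ero1l (3.77-fold higher, 10.01 and 10.9 CPM in 2xSCS70 and 3.29 and 2.26 CPM in 2xSCS2F10, adjusted p = 0.00629). Of 21 further degradation genes 6 were lower and 2 higher, and of 28 translocon and signal processing genes 11 were lower and 2 higher. Among the translocon genes, Srp72 of the signal recognition particle was 2.44-fold lower (adjusted p = 0.00203) and the signal peptidase subunit Spcs3 2.38-fold higher (adjusted p = 0.00415). Of 9 tested further sensors and processing genes 4 were lower and 1 higher, led by the kinase Map3k5, which acts downstream of IRE1 (6.08-fold lower, adjusted p = 0.000891). The median log2 fold changes of these 4 lists lay between -0.54 and -0.29, against 0.02 over all genes.

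**Figure D5:**
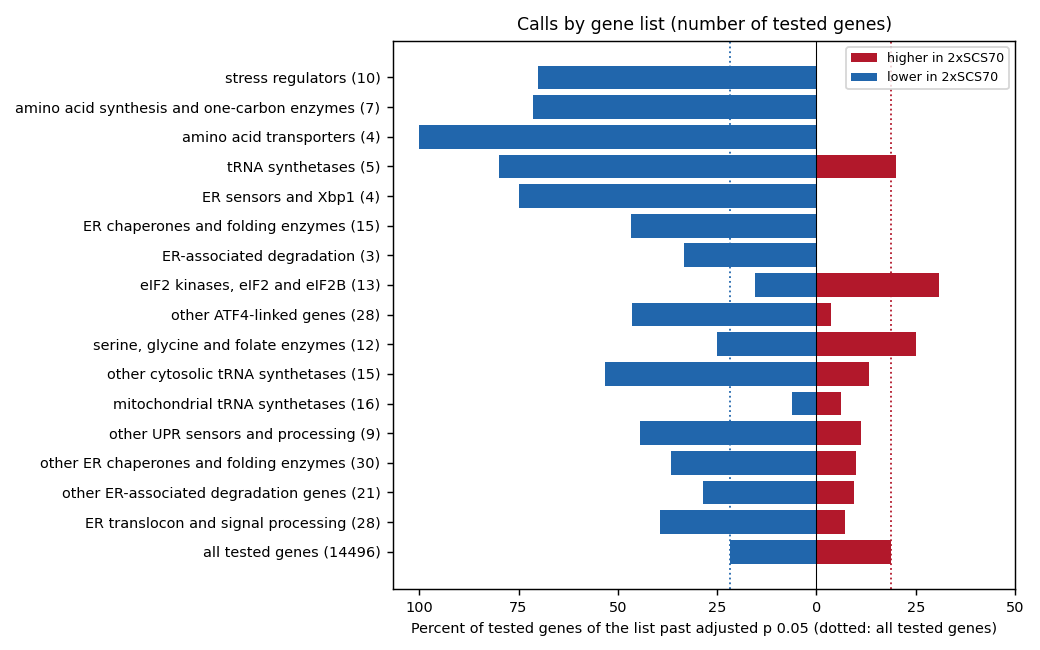
Percent of tested genes of each list past adjusted p 0.05, higher in 2xSCS70 to the right and lower to the left, with the number of tested genes in brackets and dotted lines at the level of all tested genes (18.8% and 21.8%). The upper 7 bars are the 48 members by role. All 4 amino acid transporters are on the left, and the mitochondrial tRNA synthetases lie inside both dotted lines.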

How the data were processed

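RNA sequencing of 2 libraries per line was used. Per the labels' protocols, the extraction used Qiagen miRNeasy and library preparation Illumina TruSeq mRNA, which does not mark strand. The tools named are TopHat2 2.0.6, Bowtie and HTSeq on mm10, per the submitters' processing notes, with the counting annotation not given in the sources used here. For each gene row the authors deposited a raw count and an RPKM value, per the file headers; from the values, RPKM is the count over the listed coding length and over a number of reads set once for each library. In 25 rows gene names that had become dates were restored from the other tables.

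Counts as deposited were tested with edgeR 4.0.16 in R 4.3.3 (quasi-likelihood test, TMM scaling, filterByExpr, 14496 of 23358 rows tested, Benjamini-Hochberg adjustment, threshold 0.05, no covariate). For the SE, the size of the log2 fold change was divided by √F. The common biological coefficient of variation was 20.4%. Log2 CPM used a prior count of 2. The test was checked on simulated counts. Members and lists were chosen with earlier results of these data known. Full values are given for members called with at least a 2-fold change and for Atf4, Ddit3, Xbp1, Hspa5 and Eif2ak3, and some others are shown in full because they overlapped or went the other way, a choice made after their values were seen. From the other lists up to 3 genes called with at least a 2-fold change are named by adjusted p, and Ddit4, Qars, Farsa, Eif2ak1 and Eif2s2 were named after their values were seen. The alternatives were RLE, upper quartile and plain total scaling, no filter, DESeq2 1.42.0, a replicate block and each library left out. With a library left out, the spread came from the other line's pair and was assumed for the single library. Motifs and plots used Python 3.11.15 with pandas 2.3.3 and matplotlib 3.10.9. The window of 1 member was left out of all motif results, for a reason unrelated to its values, and is not reported here. A search of protein ends was not run.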

Additional observations from a re-analysis of the deposited data

How the results depend on the processing

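No called member changed sign, and the difference of the branch medians kept its sign, in the 10 alternatives run (RLE, upper quartile and plain total scaling, no filter, DESeq2, replicate block and each library left out). With 1 library left out, the genes called ranged from 850 to 9567, those higher from 291 to 4772 and those lower from 559 to 4795. In the ATF4 branch the higher members ranged from 0 to 3 and the lower from 2 to 23. In the ER branch they ranged from 0 to 3 and from 0 to 17, and the difference of branch medians from -0.73 to -0.40. The low counts came without a 2xSCS70 library, where the spread was that of the 2xSCS2F10 pair alone. Under plain totals 2052 genes were lower, 2 ATF4 branch members were higher, and in the ER branch 1 was higher and 7 lower. Signs of 9 uncalled members turned. Under plain totals these were Shmt2 (0.059), Ern1 (0.060), Canx (0.17), Edem1 (0.067) and Sel1l (0.15). Without 2xSCS2F10 replicate 1 they were Psat1 (0.24), Shmt2 (0.093), Hyou1 (-0.071), Sdf2l1 (-0.073) and Creld2 (-0.12). Without its replicate 2 they were Edem1 (0.040) and Sel1l (0.083), and without 2xSCS70 replicate 1 Creld2 (-0.02). For these members the other end of the range with a 2xSCS2F10 library left out was -1.12 for Psat1, -0.48 for Shmt2, 0.54 for Hyou1, 0.50 for Sdf2l1, 0.20 for Creld2, -0.49 for Edem1 and -0.37 for Sel1l. The cause was not tested. The replicate number shared between lines marks no stated pairing, and deviations of same-numbered libraries had r = 0.05 across genes. The gene row Rn45s held 2.22% and 5.92% of counts in 2xSCS70 and 3.74% and 8.27% in 2xSCS2F10, for replicates 1 and 2. It was thus higher in replicate 2 of both lines, and the reason was not tested. With the replicate block 5222 genes were called, 20 ATF4 branch members and 10 ER branch members lower, with Pdia6 the 1 member call lost. The 2 libraries per line limit the precision of every spread given.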
